A study of Mus musculus with 24 samples.

Results

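Proteasome genes that are either inducible by interferon or encode activators of the proteasome core were followed in mouse gastrocnemius muscle after a burn. They were the immunoproteasome subunits Psmb8, Psmb9 and Psmb10, the PA28 subunits Psme1, Psme2 and Psme3, and Psme4, which encodes PA200. They were found by matching Ensembl identifiers to these symbols, which gave 7 of the 55401 genes in the counts, and all 7 passed the filter on low counts. The muscle came from male C57BL6 mice and was taken 24 h after injury, which was a scald covering 25% of the body, or after sham treatment. Adult mice were received at 10 weeks of age and injured at 11 weeks, and young mice at 4 and 5 weeks. There were 3 mice in each of the groups adult sham, adult burn, young sham and young burn, with a poly-A RNA library from every mouse. All mice were wild type and received isoflurane and buprenorphine. Burn mice alone received fluid resuscitation, so the burn and the fluid cannot be told apart.

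The proteasome degrades ubiquitin-tagged proteins in a barrel-shaped core whose catalytic sites lie in the subunits encoded by Psmb5, Psmb6 and Psmb7. Interferon gamma induces Psmb8, Psmb9 and Psmb10, whose products replace those of Psmb5, Psmb6 and Psmb7 in newly built cores and change the peptides released for presentation on class I molecules. PA28 and PA200 are caps that bind the ends of the core and open it without the ATP-driven unfolding of the regulatory cap. PA28 is made of the Psme1 and Psme2 products in the cytosol and of the Psme3 product in the nucleus. In muscle the proteasome is the main route by which myofibrillar proteins are broken down during wasting.

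In brief, edgeR called none of these 7 genes changed by the burn in 11 libraries, where it called 2.15% of all genes, so that 0 of 7 is near the background. Of the 33 constitutive core and cap subunits it called 28 higher in the same test, 7 with all 12 libraries and 14 to 28 when single libraries were left out. Between the ages it called Psme3 lower in young mice, 1 gene of 7 where 11.8% of all genes were called between the sham groups and 20.7% between the burn groups, and both calls were lost with all 12 libraries. DESeq2 called Psme4 lower in both age comparisons and Psme3 in the burn groups only. It called 9.23% of all genes between the sham groups and 15.3% between the burn groups. These DESeq2 calls were lost with all 12 libraries too. The Psmb10 to Psmb7 ratio had higher values in young mice and did not pass after adjustment.

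Psmb8 (ENSMUSG00000024338.15, chr17:34197721-34201454 on the plus strand of GRCm38) and Psmb9 (ENSMUSG00000096727.3, chr17:34181987-34187764, minus strand) lay 9956 bases apart with Tap1 between them, in the class II region of the major histocompatibility complex. Psme1 (ENSMUSG00000022216.17, chr14:55578123-55581529, plus strand) and Psme2 (ENSMUSG00000079197.10, chr14:55587441-55591113, minus strand) were 5911 bases apart. Psmb10 (ENSMUSG00000031897.9) was on chr8:105935735-105938444 (minus strand), Psme3 (ENSMUSG00000078652.9) on chr11:101316213-101323537 (plus strand) and Psme4 (ENSMUSG00000040850.17) on chr11:30771726-30880361 (plus strand). All 7 are protein-coding, and the counts cover their exons. Psmb9 overlapped Tap1 by 212 bases on the opposite strand, and Psmb8 and Psmb10 each overlapped an antisense gene that had 0 counts in all 12 libraries. Which strand was counted could not be learned from the sources, so reads of such partners cannot be told apart with certainty. Psme2b, a near copy of Psme2 on chromosome 11, had 138 counts over all 12 libraries, and Psme2 is uncertain to the extent that reads could be split between them.

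The total count ran from 4392605 to 5688512 per library. Levels are CPM after TMM scaling, which express a gene's count relative to the effective total count of its library. The study set 1 young burn animal aside as an outlier in its heat map, whose columns show young burn replicates 1 and 3. Replicate 2 correlated with these libraries at Pearson r = 0.94 on log2 CPM over genes, against 0.98 between the latter. Values are therefore given for the 11 libraries without it, and then for all 12. With young burn at 2 libraries, its spread was taken from all groups together. In the 11 libraries, 12651 genes were tested with edgeR's quasi-likelihood method. Called means a p below 0.05 once adjusted by Benjamini-Hochberg across all of these genes.

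Per kilobase of the principal transcript, the levels fell into 3 tiers. Psme4 was highest, with a median of 52.1 CPM per kb and a range from 35.2 to 76.1 over the 12 libraries. Psme2 followed with 44.0 CPM per kb (36.6 to 50.3) and Psme1 with 39.5 CPM per kb (33.9 to 46.3), and the ranges of these 3 genes overlapped. Psme3 had a median of 22.0 CPM per kb (16.7 to 26.6) and Psmb10 of 18.7 CPM per kb (15.4 to 21.4), and these 2 overlapped as well. Psmb9 had 5.97 CPM per kb (4.504 to 8.31) and Psmb8 5.76 CPM per kb (4.43 to 7.53), again overlapping. No range of a lower tier reached that of a higher one. The tiers depend on the length used. Per kilobase of all annotated exons, a length chosen after seeing the values, Psme3 had a median of 19.85 CPM per kb and lay among Psme1 (19.9) and Psme2 (24.0).

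The number of reads limits what could be seen for the catalytic subunits. Psmb9 had 25 to 55 counts per library and Psmb8 34 to 67, so that counting alone gives a coefficient of variation of 15.7% and 14.5%. Psmb10 had 83 to 151 counts, Psme1 168 to 263, Psme2 166 to 244, Psme3 182 to 388 and Psme4 938 to 2704. The counting error was 2.38% for Psme4. These figures cover counting error only.

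**Figure D1:**
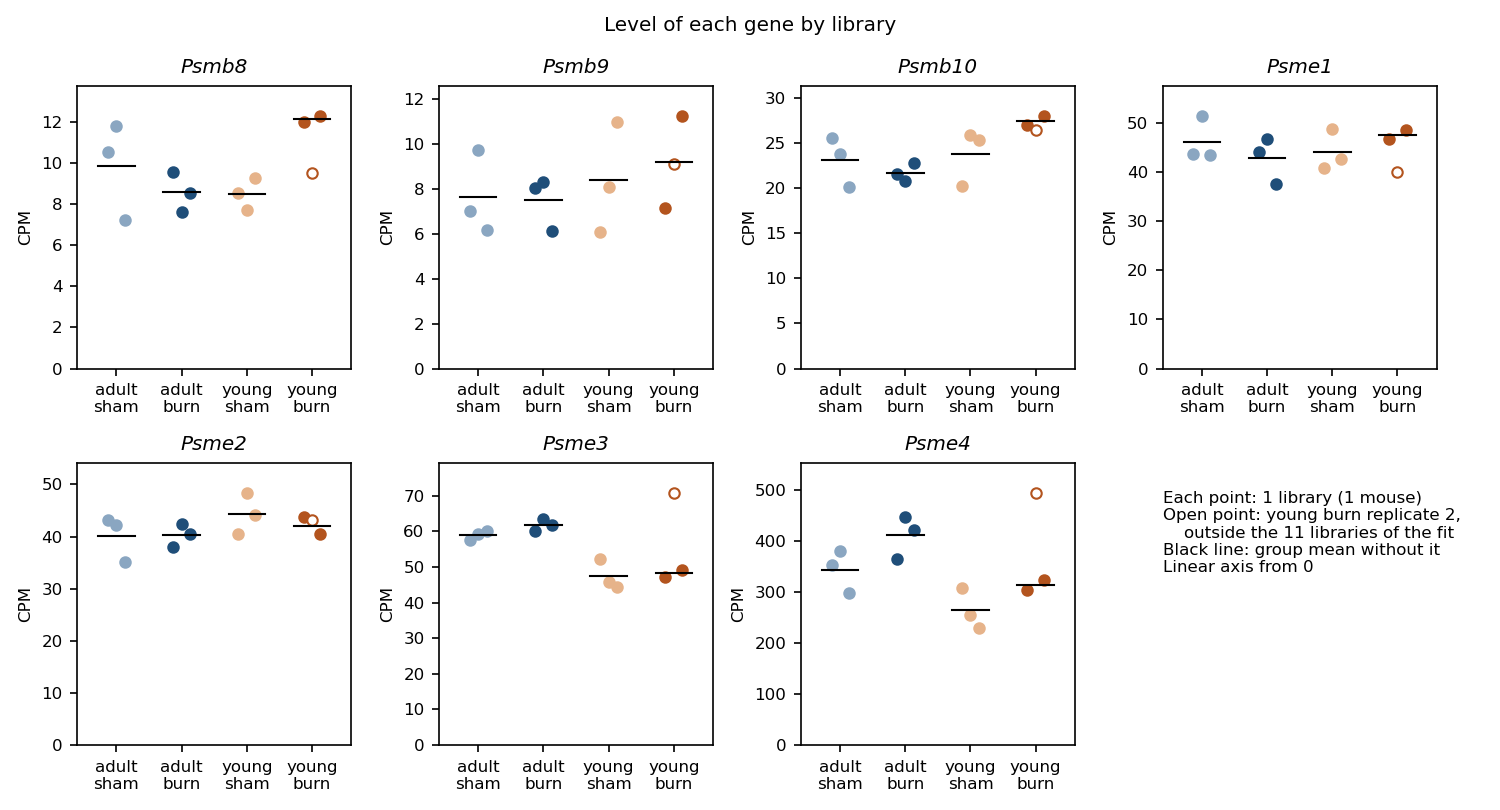
CPM (linear axis from 0) of the 7 genes in each library by group. Each point is 1 mouse, the open point is young burn replicate 2 and the black line is the group mean without it. Psme3 in both young groups lies below both adult groups except in young burn replicate 2 (70.8 CPM), and the groups overlap widely for Psme1 and Psme2.

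The first question was whether the burn changed these genes, taken over both ages together as a burn term, with age also in the model. None of the 7 was called, where 2.15% of all genes tested were. At an unadjusted p under 0.05 there was 1 gene of the 7, Psme4, against 16.6% of all genes, and DESeq2 called 0. The log2 fold changes had a median of 0.05, beside 0.00 over all genes tested. The same test over all 12 libraries also called 0 of the 7, where it called 0.717% of all genes, and 1 had an unadjusted p under 0.05.

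The intervals show what sizes of change these data leave room for. Psmb8 had a log2 fold change of 0.13 (95% interval -0.23 to 0.49), Psmb9 of 0.05 (-0.35 to 0.45) and Psmb10 of 0.05 (-0.17 to 0.26). For Psme1, whose product forms the PA28 ring with that of Psme2, it was -0.01 (-0.20 to 0.18), and for Psme2 -0.03 (-0.20 to 0.15). Psme3 had 0.05 (-0.10 to 0.20). The upper bounds correspond to at most 1.41-fold for Psmb8, 1.37-fold for Psmb9, 1.2-fold for Psmb10, 1.13-fold for Psme1, 1.11-fold for Psme2 and 1.15-fold for Psme3. Psme4 was the exception in size, at 0.26 (0.06 to 0.46), or 1.197-fold (edgeR adjusted p = 0.166).

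Psme4, whose product caps the core and also acts in the nucleus in the breakdown of acetylated histones, had 352, 380.2 and 298 CPM in adult sham and 365, 447 and 421 CPM in adult burn. In young sham it had 307, 255 and 229 CPM, and in young burn 304 and 324 CPM, with 494 CPM in replicate 2. The highest sham library of each age stood above the lowest burn library, so the groups overlapped in both ages. With all 12 libraries its burn term was 0.38 (0.10 to 0.66, edgeR adjusted p = 0.155), still without a call.

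**Figure D2:**
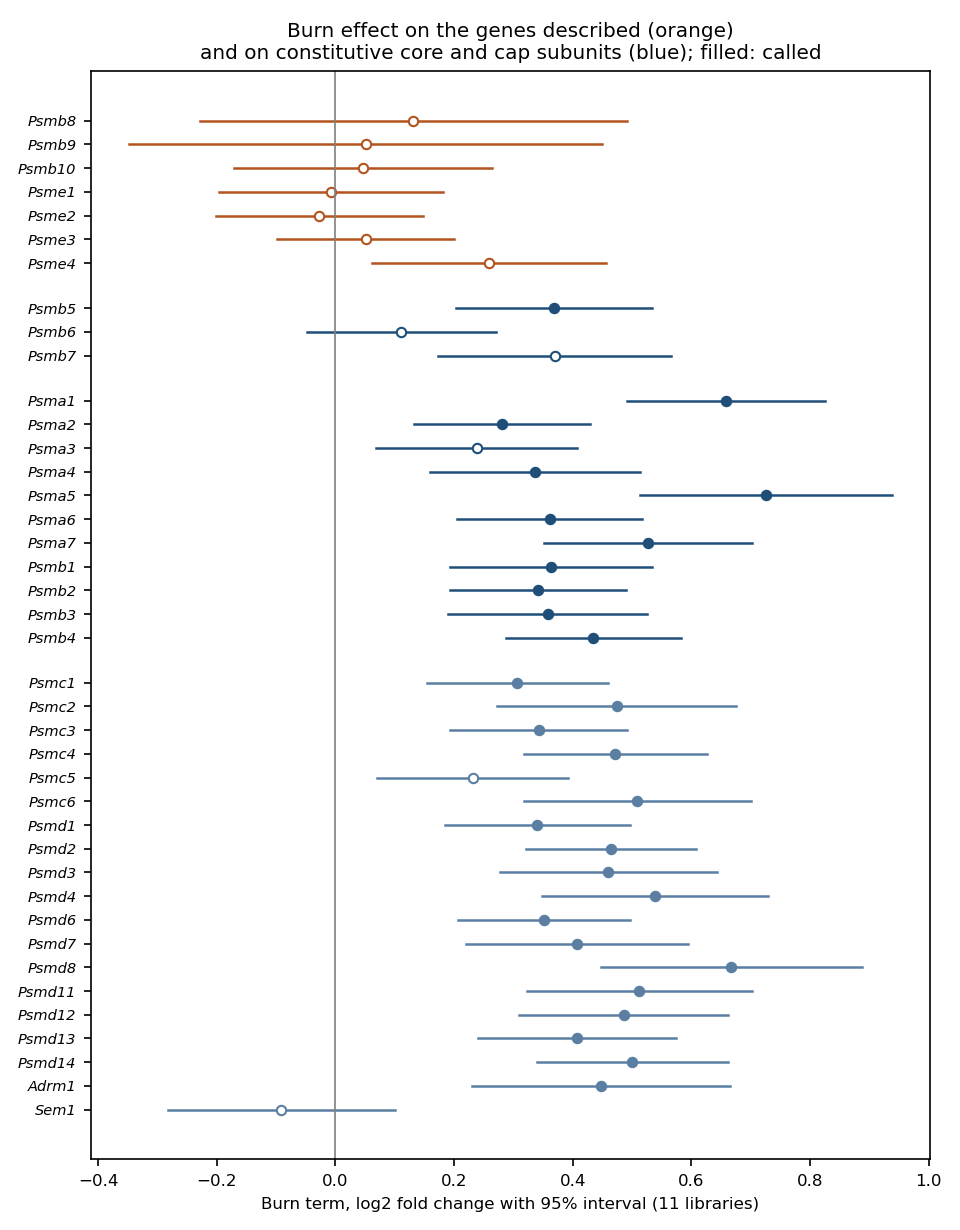
Burn term as log2 fold change with its 95% interval in 11 libraries, for the 7 genes described (orange) and 33 constitutive core and cap subunits (blue). Filled points were called: 0 of 7 against 28 of 33, with Psmb6, Psmb7, Psma3, Psmc5 and Sem1 as the blue points not called.

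The constitutive subunits gave another picture in the same fit. Of 33 genes for the core and the regulatory cap, 28 were called higher after burn, where 1.46% of all genes were called higher, and their median log2 fold change was 0.41. These subunits are known to have risen from earlier results of these data, so the count is a background for the 7 genes and not independent evidence. The core subunits Psma5 and Psma1 rose by a log2 fold change of 0.73 and 0.66 (edgeR adjusted p = 0.00277 and 0.000947). The cap subunits Psmd2 and Psmd14, the latter the deubiquitinase of the cap, had 0.46 and 0.50 (adjusted p = 0.00386 and 0.00475). When replicate 2 was included the count was 7 of 33, and DESeq2 called 29 of 33 in the 11 libraries and 26 in the 12. The count dropped to 14 without adult sham replicate 3 or young burn replicate 3, to 17 without adult burn replicate 2 and to 18 without adult burn replicate 3.

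Of the constitutive catalytic subunits that the inducible ones replace, Psmb5 was called higher after burn, with a log2 fold change of 0.37 (95% interval 0.20 to 0.53, edgeR adjusted p = 0.0230). It had 66.4, 68.9 and 71.7 CPM in adult sham against 92.6, 95.8 and 99.7 CPM in adult burn. In young sham it had 74.5, 68.0 and 82.6 CPM, and in young burn 85.3 and 89.7 CPM, with 173 CPM in replicate 2. Its groups did not overlap in either age. Psmb7 had the same size of change, 0.37 (0.17 to 0.57), and just missed the threshold (edgeR adjusted p = 0.0501). Psmb6 had 0.11 (-0.05 to 0.27). Including replicate 2, the values were 0.55 for Psmb5, 0.46 for Psmb7 and 0.21 for Psmb6, none called by edgeR.

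To set both kinds of subunit against each other within a library, the log2 ratio of counts of each inducible subunit to its constitutive counterpart was compared between burn and sham by an exact permutation test within each age. A ratio within a library does not depend on the scaling. The Psmb10 to Psmb7 ratio was lower by 0.32 after burn in the 11 libraries (exact p = 0.105, adjusted over the 6 ratio tests 0.315), by 0.21 in young and 0.43 in adult mice. Over all 12 libraries it was lower by 0.41 (exact p = 0.045, adjusted 0.135). The Psmb8 to Psmb5 ratio differed by -0.18 (exact p = 0.38, adjusted 0.576). It was lower by 0.65 in adult burn and higher by 0.29 in young burn, and over 12 libraries the young difference was -0.16. The Psmb9 to Psmb6 ratio differed by -0.03 (exact p = 0.91). None of the burn ratios passed after adjustment, and the smallest p the design allows is 0.005 in 11 libraries. In 12 libraries it is 0.005 as well, because exchanging all labels gives a difference of equal size and opposite sign.

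As shares of a pair per kilobase of principal transcript, Psmb8 made up 7.32 ± 1.80% of Psmb8 and Psmb5 together in adult sham (SD, n = 3), 4.70 ± 0.622% in adult burn (SD, n = 3), 5.88 ± 0.0562% in young sham (SD, n = 3) and 7.12 ± 0.137% in young burn (SD, n = 2). Young burn replicate 2 had a Psmb8 share of 2.94%, and with it the young burn mean was 5.72 ± 2.41% (SD, n = 3), below that of young sham. Psmb9 was between 1.77% and 2.39% of its pair in the group means. Psmb10 was the inducible subunit nearest to its counterpart. It had 14.5 ± 2.36% in adult sham (SD, n = 3), 11.2 ± 0.696% in adult burn (SD, n = 3), 20.1 ± 4.78% in young sham (SD, n = 3) and 17.7 ± 1.02% in young burn (SD, n = 2). With replicate 2, at 12.8%, the young burn mean of Psmb10 was 16.0 ± 2.92% (SD, n = 3). Per kilobase of all annotated exons the group means of Psmb10 ran from 22.2% to 36.1%. These are shares of transcripts and not of assembled proteasomes.

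**Figure D3:**
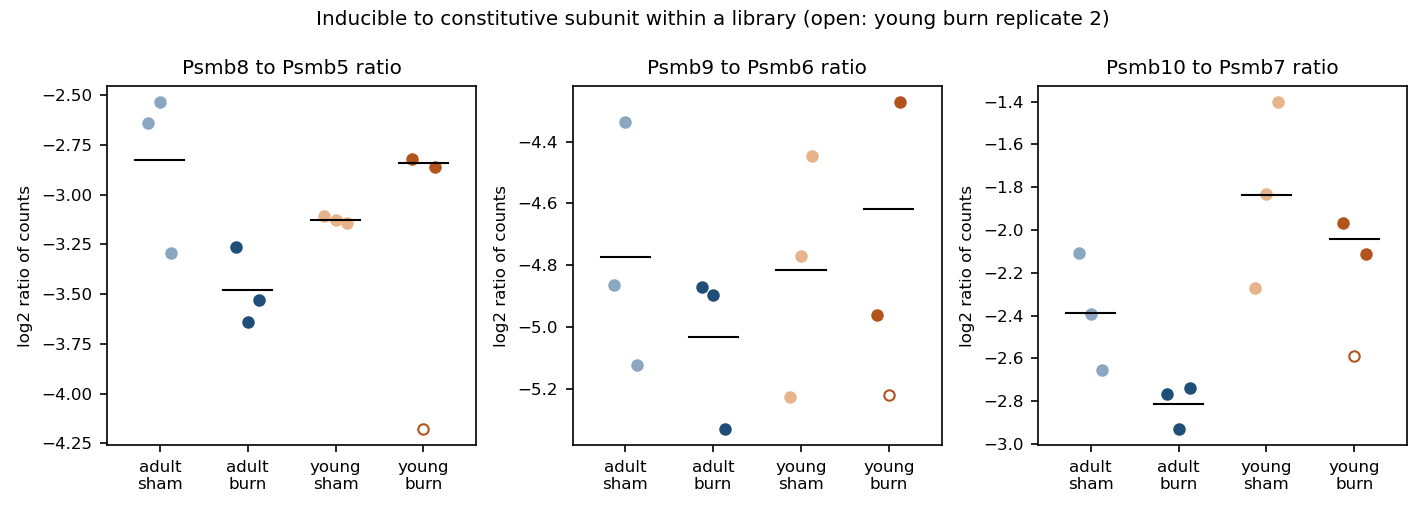
Log2 ratio of counts of each inducible subunit to its constitutive counterpart by library and group. Points are mice, open points are young burn replicate 2 and black lines are group means without it. All 3 adult burn libraries lie below every young library for Psmb10 to Psmb7, replicate 2 included.

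A further comparison was chosen after these values had been seen. Each gene's log2 CPM was measured against the mean log2 CPM of the 33 constitutive subunits in the same library, and the difference was compared between burn and sham within age by an exact permutation test. It was lower after burn by 0.42 for Psme2 (exact p = 0.01), 0.39 for Psme1 (exact p = 0.01), 0.35 for Psme3 (exact p = 0.005, the smallest possible) and 0.33 for Psmb10 (exact p = 0.03). For Psmb9 it was -0.33 (exact p = 0.13), for Psmb8 -0.23 (exact p = 0.23) and for Psme4 -0.13 (exact p = 0.125). These are 7 tests without adjustment. An exact p under 0.05 was also reached by 59.9% of all genes tested, so 4 of 7 is near the background. In all 12 libraries 5 of the 7 had an exact p under 0.05, with Psmb9 at -0.46 (exact p = 0.045) as the added gene, against 69.1% of all genes.

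Short stretches of promoter are shown for the elements through which either kind of subunit is known to be induced, beside the burn terms given above. Windows of 300 bases, from 250 before to 50 after the gene start of RefSeq, were taken from its promoters (GRCm38.p6) and matched 9 of the 10 genes, all but Psmb7. They were searched on both strands for the interferon gamma element GAS (TTCNNNGAA), the interferon element ISRE and the antioxidant response element ARE (TGACNNNGC), which is read by Nfe2l1 and Nfe2l2. The capitals mark the match, and each stretch is given 5′ to 3′ on the strand of its gene.
Psmb8: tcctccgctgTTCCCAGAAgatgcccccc
Psme1: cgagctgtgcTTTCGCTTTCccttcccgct
Psme4: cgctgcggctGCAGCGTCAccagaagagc
Psmb5: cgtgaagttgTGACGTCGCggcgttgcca
Psmb6: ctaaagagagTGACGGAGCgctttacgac
The Psmb8 stretch (chr17:34198088-34198116) holds a GAS match that starts 97 bases before the RefSeq start, and the Psme1 stretch (chr14:55578493-55578522) an ISRE match on the opposite strand 9 bases after it. The Psme4 stretch (chr11:30771758-30771786) holds an ARE match on the opposite strand 7 bases before the start. The matches of Psmb5 (chr14:54618024-54618052, minus strand) and Psmb6 (chr11:70525338-70525366) are ARE matches 47 and 9 bases before it. Psmb9, Psmb10, Psme2 and Psme3 held none of these letters in their windows. Of all 32851 promoter windows, 8.3% held GAS, 3.44% ISRE and 12.4% ARE. An ARE match was thus present at Psme4 (burn term 0.26), Psmb5 (0.37) and Psmb6 (0.11) alike.

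Within adult mice, none of the 7 genes was called between burn and sham, where 0.909% of all genes were called. None had an unadjusted p under 0.05, against 13.7% of all genes, and DESeq2 called 0. Psme3, whose product forms the nuclear PA28 ring, was the only member whose adult groups did not overlap, where this held for 19.9% of all genes. It had 57.7, 59.4 and 60.0 CPM in adult sham and 60.0, 63.4 and 61.8 CPM in adult burn. The gap between the highest sham and the lowest burn library was within rounding, and its log2 fold change was 0.06 (95% interval -0.13 to 0.26). The immunoproteasome subunits had values of -0.20 for Psmb8, -0.02 for Psmb9 and -0.10 for Psmb10. In the 12 libraries 0 were called, beside 0.00806% of all genes.

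Within young mice, none of the 7 was called between burn and sham either, where 0.664% of all genes were. Psmb8 had the largest value, a log2 fold change of 0.53 (95% interval 0.07 to 0.99, edgeR adjusted p = 0.248), and it was the only member with an unadjusted p under 0.05, against 16% of all genes. DESeq2 gave 0 calls. Psmb8, which carries the chymotrypsin-like site of the immunoproteasome, had 8.52, 7.70 and 9.26 CPM in young sham and 12.005 and 12.3 CPM in young burn, with 9.49 CPM in replicate 2. Every young burn library thus stood above every young sham library, replicate 2 by a narrow margin.

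Psmb10, which carries the trypsin-like site, had 20.2, 25.9 and 25.4 CPM in young sham and 27.1 and 28.0 CPM in young burn and 26.5 CPM in replicate 2. Its groups did not overlap either, with a log2 fold change of 0.22 (-0.09 to 0.52). Non-overlap held for 2 of the 7 genes and for 32.4% of all genes. Psmb9 and Psme1 had values of 0.14 and 0.12, Psme2 of -0.06, Psme3 of 0.04 and Psme4 of 0.26, all with intervals across 0. When replicate 2 was included, Psmb8 had 0.41 (edgeR adjusted p = 0.282) and 0 of the 7 were called, beside 0.0645% of all genes.

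The burn by age interaction asks whether the burn effect differed between the ages. No member was called, where 0.0949% of all genes were, and 1 had an unadjusted p under 0.05, against 11.1% of all genes. That gene was Psmb8, with a difference of 0.73 between the log2 fold changes (95% interval 0.10 to 1.35, edgeR adjusted p = 0.387). Psmb10 had 0.31 (-0.10 to 0.72), Psme1 0.23 (-0.13 to 0.59) and Psmb9 0.16 (-0.66 to 0.98). Psme2, Psme3 and Psme4 had differences of -0.07, -0.03 and 0.01. In all 12 libraries 0% of genes were called and Psmb8 had 0.60 (-0.02 to 1.23).

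**Figure D4:**
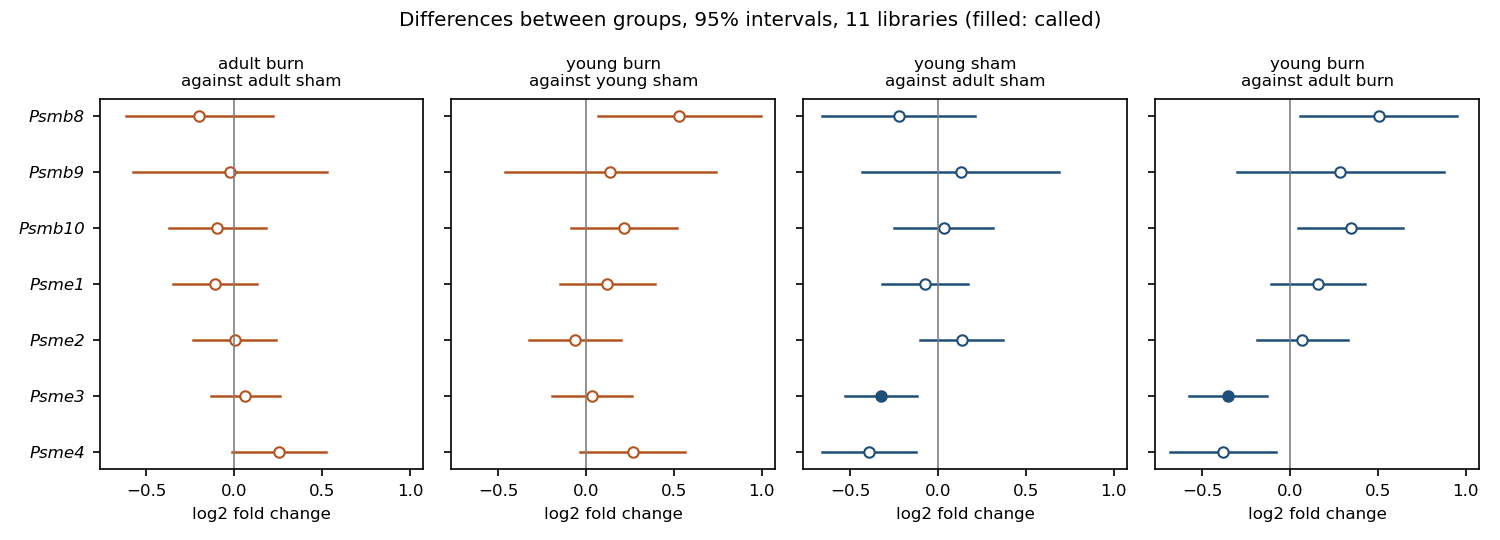
Log2 fold changes of the 7 genes with 95% intervals in the 4 comparisons of groups, 11 libraries. Filled points were called, which are Psme3 in the comparisons of young with adult mice (-0.33 in sham and -0.35 in burn), and Psmb8 has its largest value in young burn against young sham (0.53).

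Age was the comparison in which a member was called. Psme3 was lower in young sham than in adult sham, by a log2 fold change of -0.33 (95% interval -0.53 to -0.12, edgeR adjusted p = 0.0386), and lower in young burn than in adult burn, by -0.35 (-0.58 to -0.13, adjusted p = 0.0278). It was 1 of 7 genes called in either comparison, where 11.8% of all genes were called between the sham groups and 20.7% between the burn groups. In young sham it had 52.1, 45.8 and 44.4 CPM, and in young burn 47.3 and 49.1 CPM, all below the lowest adult library at 57.7 CPM. These comparisons share no library, but they share the fit. The summed level of 5 fibroblast markers also differed by age, from 5600.1 to 7155 CPM in the young libraries, replicate 2 included, and from 2394 to 3220.5 CPM in the adult ones, and its part in the level of Psme3 was not tested. The study's RNA quality report gave no integrity number for any sample. In its ratio of large to small ribosomal RNA, no young sham sample exceeded any adult sham sample, and the burn groups overlapped. The part of RNA quality was not tested either.

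The calls of Psme3 rested on the choice of libraries, tool, filter, scaling and model. Young burn replicate 2 had 70.8 CPM, above every adult library, and with all 12 libraries the values became -0.32 between the sham groups (edgeR adjusted p = 0.248) and -0.15 between the burn groups (adjusted p = 0.540). In the 12 libraries 0 of the 7 genes were called in either comparison, where 3.76% and 10.8% of all genes were. DESeq2 in the 11 libraries gave adjusted p = 0.0883 between the sham groups and 0.0496 between the burn groups. Both edgeR calls were lost without the filter on low counts (adjusted p = 0.080 and 0.061). They were also lost with the replicate number in the model (edgeR adjusted p = 0.068 and 0.062). The sham call was lost with only the groups compared (edgeR adjusted p = 0.089). Scaling by library size alone lost the burn call (edgeR adjusted p = 0.0998). Within the 11 libraries, the edgeR call between the sham groups was lost when adult burn replicate 3, any adult sham library, either young burn library or young sham replicate 2 or 3 was left out, with adjusted p from 0.0528 to 0.151. The call between the burn groups was lost without adult burn replicate 2 or 3 or without either young burn library (edgeR adjusted p from 0.0621 to 0.164). The value stayed below 0 throughout, between -0.46 and -0.27 for sham and between -0.39 and -0.15 for burn over all alternatives, all 12 libraries included.

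Psme4 had values of -0.39 (-0.66 to -0.12, edgeR adjusted p = 0.0562) in young sham against adult sham and -0.38 (-0.68 to -0.08, adjusted p = 0.0661) in young burn against adult burn. DESeq2 called both, with adjusted p = 0.0387 and 0.0446, where it called 9.23% and 15.3% of all genes. Its sham groups overlapped, young sham at up to 307 CPM against a lowest adult sham library of 298 CPM, and its burn groups did not in the 11 libraries. With all 12 libraries the value between the burn groups became -0.14 (edgeR adjusted p = 0.672).

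The immunoproteasome subunits did not follow this pattern. Between the sham groups Psmb8, Psmb9 and Psmb10 had -0.22, 0.13 and 0.03, with intervals across 0. Between the burn groups Psmb8 had 0.50 (95% interval 0.06 to 0.95, edgeR adjusted p = 0.0991), Psmb10 0.34 (0.05 to 0.64, adjusted p = 0.0920) and Psmb9 0.29 (-0.30 to 0.88), and none was called. Psmb8 had 9.56, 7.59 and 8.54 CPM in adult burn and Psmb10 21.6, 20.8 and 22.8 CPM, all below the young burn libraries of the 11. Young burn replicate 2 fell within the adult burn range for Psmb8 and above it for Psmb10. The unadjusted p was under 0.05 for 2 of the 7 genes between the sham groups and for 4 between the burn groups, against 27.8% and 35.5% of all genes. Groups did not overlap for Psme3 alone between the sham groups and for Psmb8, Psmb10, Psme3 and Psme4 between the burn groups, against 31.1% and 53.2% of all genes.

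The ratio of inducible to constitutive subunit was also compared between the ages. The Psmb10 to Psmb7 ratio differed by 0.66 on the log2 scale in young against adult mice, or 1.58-fold (exact p = 0.01, adjusted over the 6 ratio tests 0.06), by 0.55 in sham and 0.77 in burn, and did not pass after adjustment. In all 12 libraries it differed by 0.57 (exact p = 0.015, adjusted 0.09). The log2 ratios were -2.11, -2.39 and -2.66 in adult sham and -2.77, -2.93 and -2.74 in adult burn. In young sham they were -2.27, -1.83 and -1.40, and in young burn -1.97 and -2.11, with -2.59 in replicate 2. The sham groups overlapped and the burn groups did not. Psmb7 itself was called lower in young mice, with a log2 fold change of -0.51 in sham (edgeR adjusted p = 0.0194) and -0.42 in burn (adjusted p = 0.0443), while Psmb10 was not called. In the 12 libraries Psmb7 was not called in either (edgeR adjusted p = 0.112 and 0.347). The Psmb8 to Psmb5 and Psmb9 to Psmb6 ratios differed by 0.17 and 0.19 (exact p = 0.46 and 0.48).

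The genes that induce the immunoproteasome, or are induced with it, were examined as lists. Ifng, which encodes interferon gamma, had 3 counts in adult sham replicate 2 and 0 in every other library. Of 13 genes tested of the interferon gamma signalling list, 0 were called in the burn term, 1 had an unadjusted p under 0.05 and DESeq2 called 0. The median was 0.07. Among those with the smallest p were Irf2 (0.20), Socs1 (0.62) and Nlrc5, the transactivator of class I genes (-0.65), none called. Of 17 interferon-induced effectors tested, 0 were called, 2 had an unadjusted p under 0.05 and DESeq2 called 0, with a median of -0.07. The GTPase genes Igtp, Gbp7 and Iigp1 had -0.41, -0.33 and -0.47, and Ifit1 had 0.66. Of 11 genes for class I peptide loading, 0 were called, 2 had an unadjusted p under 0.05 and DESeq2 called 0, with a median of 0.13. Among them Tapbp, the tapasin that bridges class I molecules to the peptide transporter, had 0.30 (edgeR adjusted p = 0.0998), Calr 0.17, Canx 0.17 and Tap2 0.21.

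Within each age, the interferon-induced effectors had values above 0 for 1 of 17 genes in adult burn against adult sham, with a median of -0.37, and for 14 of 17 in young burn against young sham, with a median of 0.25. None was called by edgeR or DESeq2 in either, and 6 and 5 had an unadjusted p under 0.05, against 13.7% and 16% of all genes. In the interaction test all 17 had a positive value, with a median of 0.60 beside 0.01 over all genes. Of these 0 were called and 6 had an unadjusted p under 0.05, against 11.1% of all genes. The 17 values come from the same mice and are not separate observations. DESeq2 called 0. In the 12 libraries 16 of 17 were positive, with a median of 0.59 and 0 called. Iigp1, for example, had -0.82 in adult burn and -0.08 in young burn (interaction edgeR adjusted p = 0.549), and Ifit1 had -0.23 and 1.35 (interaction adjusted p = 0.351). Psmb8 had -0.20 and 0.53, Psmb9 -0.02 and 0.14, Psmb10 -0.10 and 0.22, Psme1 -0.11 and 0.12, and Psme2 0.00 and -0.06. Between the burn groups, 5 of the 17 effectors were called higher in young burn, against 11.2% of all genes called higher there.

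Psmb9 and its neighbour Tap1 had burn terms of 0.05 and -0.00 on the log2 scale. Of the chaperones that assemble the core, 0 of 5 were called after burn, 0 had an unadjusted p under 0.05 and DESeq2 called 0. Their median was -0.07, and Psmg1, Pomp, Psmg4 and Psmg2 had -0.21, 0.05, -0.10 and -0.07. Pomp is the maturation factor of newly built cores. Of the Nfe2l1 pathway, through which cells are known to raise constitutive subunits when proteasome capacity falls short, 0 of 5 genes were called by edgeR and 2 by DESeq2. Nfe2l2 had 0.31 (edgeR adjusted p = 0.0545) and Vcp 0.31 (adjusted p = 0.0799), while Nfe2l1 and Ngly1 had 0.10 and 0.08. Psmf1, an inhibitor of the core, had 0.17, and the thymus and testis subunits Psmb11 and Psma8 did not pass the filter.

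Muscle holds immune and stromal cells that express the immunoproteasome at high levels, so their markers are given beside these results. Fewer cells of a type and less RNA per cell cannot be told apart in such bulk samples. Of 17 leukocyte markers, 9 passed the filter and 4 of these were called higher after burn, namely the neutrophil genes S100a9 (2.07) and S100a8 (1.78) and the macrophage genes Cd68 (1.07) and Csf1r (0.62). Of all genes tested, 1.46% were called higher there. With all 12 libraries edgeR called 2 of the 9 markers higher. The summed level of the 17 ranged from 89.1 to 120 CPM in adult sham, from 111 to 145 in adult burn, from 87.0 to 100.3 in young sham and from 147 to 216 in young burn, replicate 2 included. Every young burn library thus had a higher sum than any library of the other groups. Psmb8 was highest in young burn replicates 1 and 3 but not in replicate 2. Replicate 2 had a leukocyte sum of 178 CPM and Psmb8 at 9.49 CPM. That was below Psmb8 in adult sham replicates 1 and 2 (10.5 and 11.8 CPM) and adult burn replicate 1 (9.56 CPM). The T cell genes Cd8a and Cd3e had at most 3 and 7 counts in any library. The class II markers had sums from 209 to 265 CPM in adult burn and from 270.5 to 356 CPM in adult sham, and from 126 to 245 CPM in young sham. In young burn they had 206 and 219 CPM, with 154 CPM in replicate 2. The muscle fibre markers Acta1, Ckm, Myh4, Tnnt3 and Mylpf summed to 92201 to 101780 CPM in adult sham, 93308 to 111310 CPM in adult burn and 110050 to 158540 CPM in young sham. In young burn the sums were 101860 and 98259 CPM, with 79784 CPM in replicate 2, so the young groups did not overlap. In young burn against young sham all 5 of these markers had values below 0, with a median of -0.39, and in adult burn all 5 had values above 0, with a median of 0.15. The interaction was below 0 for all 5, with a median of -0.60. edgeR called 0 in each of these comparisons, and DESeq2 called 1, 0 and 1. Before adjustment 3, 0 and 3 were below 0.05 in edgeR, against 16%, 13.7% and 11.1% of all genes. The direction was opposite to that of Psmb8, which had 0.53 in young mice and 0.73 in the interaction. In the burn term edgeR called 0 of 4 class II, 0 of 5 endothelial, 0 of 5 fibroblast and 0 of 5 muscle fibre markers, with 0, 2, 1 and 0 genes below 0.05 before adjustment, and no list had a call by DESeq2. The part of these cells in the levels of the 7 genes was not tested.

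Of the 6 adult libraries, adult sham replicate 2 had the highest Psmb8 (11.8 CPM), Psmb9 (9.74 CPM), Psme1 (51.4 CPM) and class II sum (356 CPM). Psmb8 had 52 counts there and 51 in adult sham replicate 1. The latter had the highest Psmb10 (25.6 CPM) and Psme2 (43.2 CPM), and adult burn replicate 2 the highest Psme3 (63.4 CPM) and Psme4 (447 CPM). The leukocyte sum of adult sham replicate 2 (120 CPM) was the highest of the adult sham libraries only. Adult burn replicate 1 had a higher one (145 CPM), with Psmb8 at 9.56 CPM. Without adult sham replicate 2, the log2 fold change of Psmb9 in adult burn against adult sham moved from -0.02 to 0.19. No member was called between adult burn and adult sham with or without it.

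In young burn replicate 2, the 7 genes split. Psmb8, Psmb9, Psmb10, Psme1 and Psme2 lay inside the range of the other 11 libraries, at 0.782 to 1.02 times the mean of young burn replicates 1 and 3. Psme3 and Psme4 lay above it, at 1.47 and 1.57 times that mean. Of the 33 constitutive subunits, 29 lay above all other libraries, at a median of 1.74 times the mean of replicates 1 and 3, as did 2331 of 12408 genes tested in 12 libraries. Transcripts of most constitutive subunits were thus highest in this mouse, and those of the immunoproteasome, Psme1 and Psme2 were not.

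The patterns of the members over the 11 libraries are given as Pearson correlations of log2 CPM. They describe these libraries only, in which age, burn and scaling are shared, and no grouping of the members was tested. Psme3 and Psme4 correlated at 0.86. Psmb8 and Psmb10 correlated at 0.68, Psmb10 and Psme2 at 0.61, Psmb9 and Psme1 at 0.60 and Psmb9 and Psmb10 at 0.54. Psmb10 and Psme3 had -0.66. Psme1 and Psme2, whose products form 1 ring, had 0.35. The genes outside the 7 most like each member were, for Psme3, Hmgxb3, Nomo1 and Aen (each 0.99) and, for Psme4, Pnpla7 (0.98), Gaa (0.97) and Cep85 (0.97). For Psmb8 they were Acadl (0.92), Prickle3 (0.91) and Lpcat1 (0.91), and for Psmb9 Sp140 (0.91), Sgms2 (0.88) and Ube2e2 (0.86). For Psmb10 they were Crnde (0.95), Emp3 (0.90) and Meis2 (0.90), for Psme1 Afg1l (0.88), Dock8 (0.87) and Tmem18 (0.84), and for Psme2 3300002P13Rik, Lhfpl2 and Zfp30 (each 0.89). In the 12 libraries Psme3 had 0.92 with Hmgxb3, 0.76 with Nomo1 and 0.74 with Aen, and 3300002P13Rik had 0.27 with Psme2. Psme4 had 0.97 with Pnpla7 and Gaa and 0.85 with Cep85. The other partners named ran from 0.64 to 0.92.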

How the data were processed

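Poly-A RNA of gastrocnemius was measured in 12 libraries, and the study's small RNA libraries were not used here. The authors aligned reads with STAR 2.7.5c to GRCm38 and deposited raw read counts per Gencode M25 gene, without normalization (the submitters' processing notes name bcl2fastq 2.20 too). The counts were analysed in R 4.3.3 with edgeR 4.0.16 (TMM, filterByExpr with a minimum count of 10 and total of 15, quasi-likelihood test) and DESeq2 1.42.0 as an alternative, and drawn with matplotlib 3.10.9. Symbols, positions and lengths came from Gencode M21. Log2 CPM used a prior count of 2, and ratios added 0.5 to each count. Exact tests were two-sided. The burn term is from a model of age and burn, and other contrasts from group means. The tests were tried on simulated counts. Nothing in the labels ties replicate numbers to litters, and p-values measure the spread between mice. The genes and lists were chosen with earlier results of these data known. Named were the members, their counterparts, at most 4 genes per list by p in the burn term, and the 3 genes most like each member. A gene that this rule names is not reported here. Reads were counted without molecular identifiers. Depth was 4392605 to 5688512 counts per library.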

Additional observations from a re-analysis of the deposited data

How the results depend on the processing

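Of 742 refits of the members' log2 fold changes, 661 kept their direction and their side of the threshold, 21 lost a call, 11 gained one and 49 changed sign, and of 78 for the ratios 71, 0, 2 and 5 did. No member was called in the burn term, within either age or in the interaction under any alternative run, and the cause of the shifts below was not tested. The number of members called between the sham groups (1) was 0 with all 12 libraries, 2 with library size alone as scaling, 0 with the replicate block, 0 with only the groups compared in the fit, and 0 to 2 when single libraries were left out. Of all genes, these settings called 3.76%, 14.1%, 9.36% and 9.8% in that order, and 4.49% to 14.1% with single libraries left out. Between the burn groups (1) the number of members called was 0 with 12 libraries, 0 with library size alone, 2 with DESeq2, 0 with the block, 2 with only the groups compared, and 0 to 2 with single libraries left out. Of all genes, these settings called 10.8%, 16.2%, 15.3%, 14.5% and 21.4% in that order, and 7.35% to 22.5% with single libraries left out. The constitutive count (28) was 7 with 12 libraries and 14 to 28 with single libraries left out. With 12 libraries the Psmb8 to Psmb5 ratio between the ages turned to -0.054, the Psmb10 to Psmb7 ratio after burn reached -0.41 (exact p = 0.045), Psmb9 relative to the constitutive subunits reached -0.46 and the Psme3 interaction turned to 0.17. Leaving out single libraries moved the Psmb9 to Psmb6 burn ratio from -0.20 to 0.14 and the Psmb10 to Psmb7 burn ratio from -0.42 to -0.21.

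Values near 0 changed sign. Scaling by library size alone shifted the median of all genes by 0.16 in young burn against young sham, -0.13 between the sham groups and 0.18 in the interaction. The share of calls that were higher moved from 68% to 88.9% in the burn term, from 69% to 95.8% in young burn against young sham, from 44.8% to 19.7% between the sham groups and from 83.3% to 100% in the interaction. Under it Psme1 and Psme2 had burn terms of 0.056 and 0.034, Psme2 had -0.010 in adult and 0.089 in young mice, Psmb9 and Psmb10 had -0.015 and -0.10 between the sham groups, and the interactions of Psme2 and Psme3 were 0.10 and 0.14. The Psme4 interaction was -0.0033 with RLE and -0.0096 with DESeq2, Psmb10 between the sham groups -0.0019 without the filter, Psme1 in the burn term 0.021 with the block and Psme2 in adult mice -0.0016 with only the groups compared. With single libraries left out, the burn terms ran from -0.085 to 0.15 for Psmb9, -0.0083 to 0.11 for Psmb10, -0.041 to 0.0405 for Psme1 and -0.075 to 0.003 for Psme2. In adult mice Psmb9 ran from -0.16 to 0.18 and Psme2 from -0.0865 to 0.062, and in young mice Psmb9 from -0.21 to 0.44, Psme2 from -0.12 to 0.0062 and Psme3 from -0.022 to 0.11. Between the sham groups Psmb9 ran from -0.089 to 0.35, Psmb10 from -0.0615 to 0.13 and Psme1 from -0.15 to 0.0199, and between the burn groups Psmb9 from -0.066 to 0.58. The interactions ran from -0.19 to 0.46 for Psmb9, -0.13 to 0.023 for Psme2, -0.088 to 0.048 for Psme3 and -0.10 to 0.14 for Psme4.

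The labels give every group the same replicate numbers. Deviations of equally numbered mice correlated between -0.20 and 0.15 over 18 pairs, 3 of them over 0.1. Those of unequally numbered mice correlated between -0.19 and 0.21. With 3 mice per group, such correlations cannot decide whether equally numbered mice shared a litter or batch. The block moved the count over all genes from 272 to 172 in the burn term, from 115 to 72 in adult mice, from 84 to 7 in young mice and from 12 to 4 in the interaction. Depth limits Psmb8 and Psmb9 most, with fewer than 70 counts in every library.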
